A study of Mus musculus with 20 samples.

Results

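The Hox genes are the protein-coding genes whose symbols join Hoxa, Hoxb, Hoxc or Hoxd to a number, 39 of the 21938 protein-coding genes that the GENCODE basic annotation places on the 21 mouse chromosomes. The HoxA cluster held 11 of them, HoxB 10, and HoxC and HoxD 9 each. The 4 clusters were taken from the first to the last gene plus 10 kb on each side, on GRCm38 (mm10), as chr6:52145590-52270880 for HoxA, chr11:96184316-96378256 for HoxB, chr15:102911103-103046852 for HoxC and chr2:74658310-74775142 for HoxD. Together these windows spanned 572 kb and held 30 of the 175329 peaks of the 6 deposited lists.

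The lists come from ChIP-Seq, in which chromatin is immunoprecipitated and its DNA sequenced, of the livers of young mice (3 months) and old mice (21 months). All mice were wild-type C57BL/6 males, with no allele or treatment in either age, and the chromatin came from frozen whole liver, so that a peak cannot be assigned to a cell type. Acetylated lysine 14 of histone H3 (H3K14ac), the histone methyltransferase Setdb1 and its partner Kap1 were each profiled at both ages. For H3K14ac and Setdb1 the authors merged the reads of 3 livers per age before calling peaks, and for Kap1 the reads of 2 livers. These numbers follow the labels and methods, while legends of the study name fewer merged replicates for H3K14ac and Setdb1. Each list gives positions without heights, so there is no spread between livers, the depth behind a peak is unknown, and young and old counts were compared without a test.

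Hox genes encode homeodomain transcription factors that give cells their position along the body axis. They lie in clusters in the order in which they are expressed along that axis, and genes at the same place in different clusters (paralogous groups) are related in sequence. In tissues that do not use them they are a textbook target of Polycomb repression, and their start sites are rich in CpG, the dinucleotide that DNA methyltransferases act on. H3K14ac is common at active start sites, while Setdb1 methylates lysine 9 of histone H3 and is brought to DNA by Kap1 together with zinc finger proteins.

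The plot of the 4 clusters shows every peak that the lists hold there. H3K14ac had 3 peaks in young and 5 in old liver, Setdb1 had 6 and 1, and Kap1 had 8 and 7. No position in a Hox cluster was shared, either by the young and old lists of a mark or by different marks within an age. HoxC held 15 of the 30 peaks (50%) in 23.7% of the length of the windows. A Hox gene start had a peak of any list within 1 kb in 6 of 39 genes (15.4%), against 41.5% of all protein-coding genes.

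**Figure D1:**
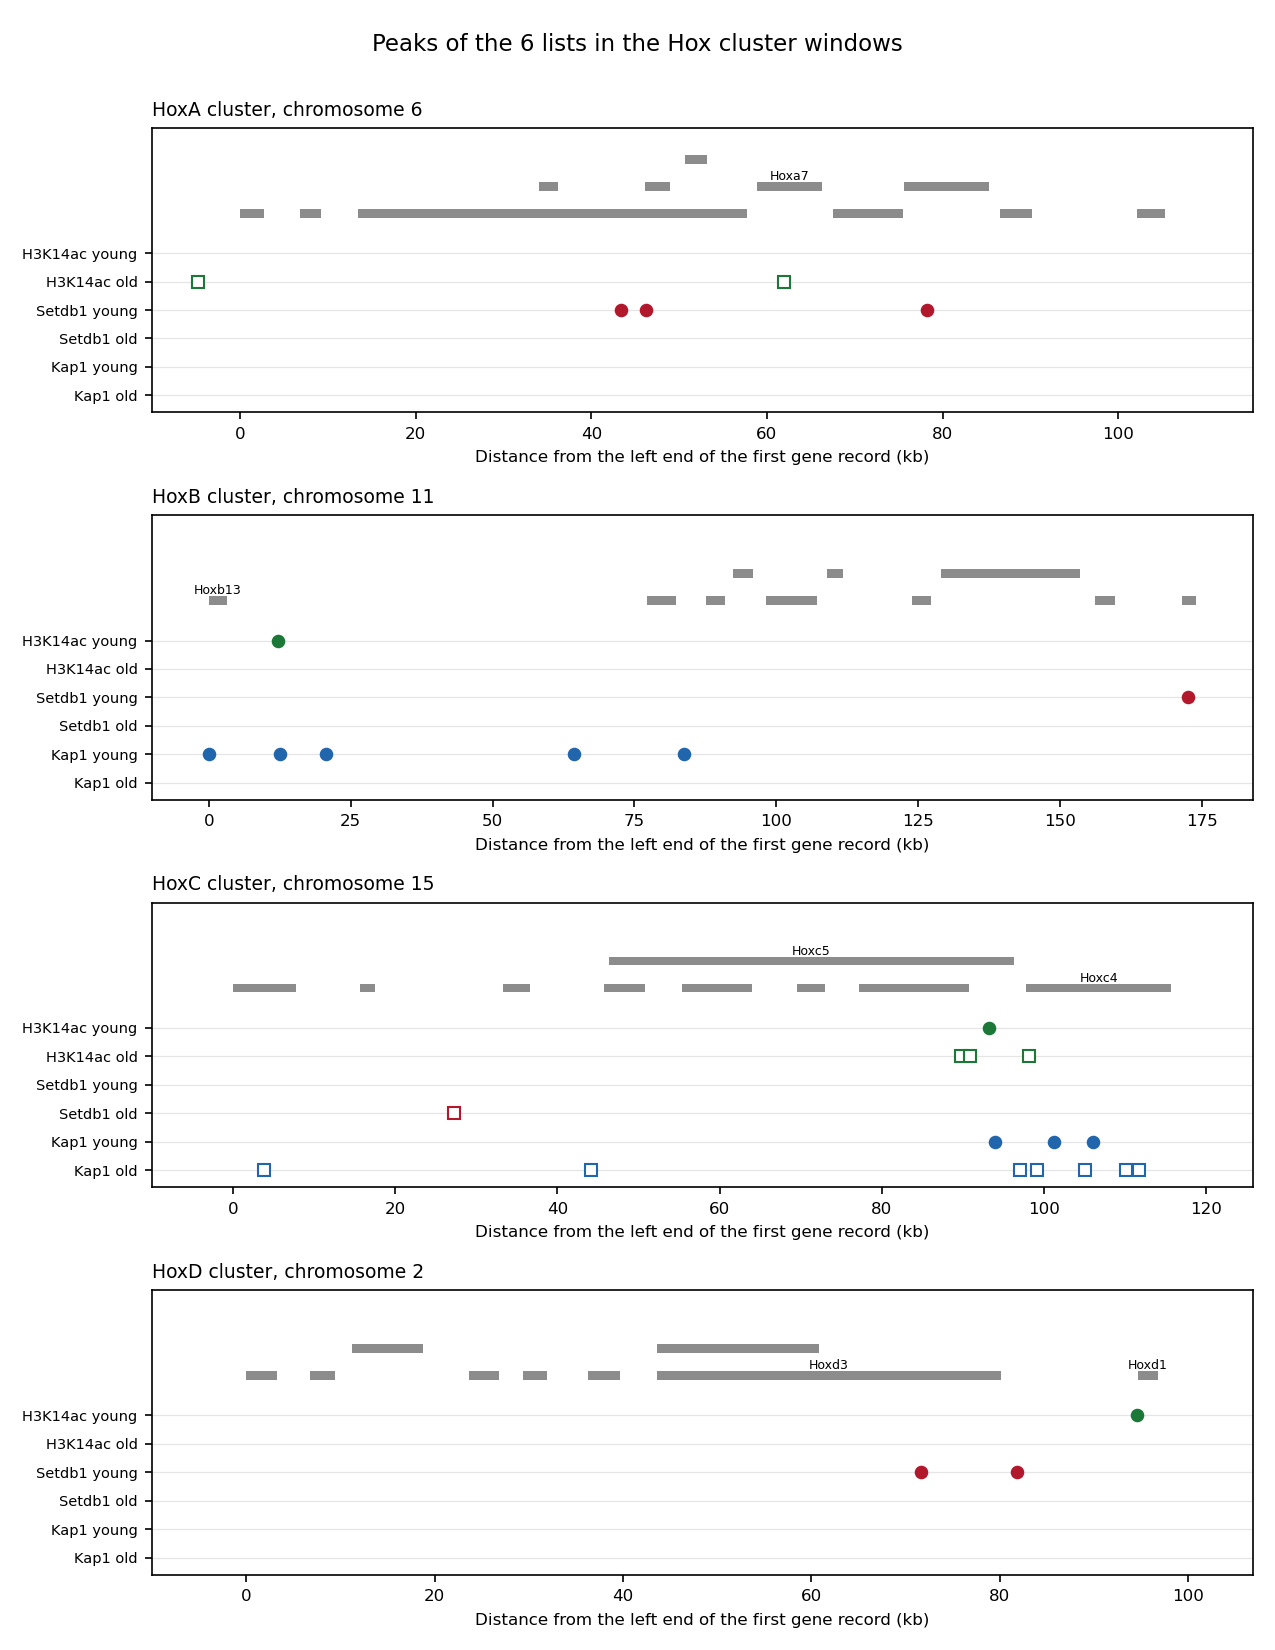
Peaks in the 4 Hox cluster windows, with distance from the left end of the first gene record (kb) on the horizontal axis and 1 row per peak list. Grey bars are gene records, with names for genes that have a peak within 1 kb of a start, circles are peaks of young liver and squares are peaks of old liver, and of the 30 peaks the HoxC window holds 15.

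The sequences that carry these peaks are given first, from GRCm38, on the plus strand, in lower case with every CpG in capitals. Of peaks wider than 300 bp a stretch of 300 bases outside untranslated regions is shown, of the others the whole peak or its part outside untranslated regions. The first set are from peaks at Hox start sites, which differ widely in CpG.
H3K14ac young, upstream of the Hoxd1 start, chr2:74762637-74762936: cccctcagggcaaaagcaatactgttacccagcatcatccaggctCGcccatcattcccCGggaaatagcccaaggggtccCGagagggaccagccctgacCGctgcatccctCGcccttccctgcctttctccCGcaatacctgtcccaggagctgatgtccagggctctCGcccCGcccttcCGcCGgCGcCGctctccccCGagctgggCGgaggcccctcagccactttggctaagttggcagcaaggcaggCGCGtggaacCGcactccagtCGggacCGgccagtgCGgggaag
H3K14ac old, beside the inner Hoxa7 starts, chr6:52217521-52217820: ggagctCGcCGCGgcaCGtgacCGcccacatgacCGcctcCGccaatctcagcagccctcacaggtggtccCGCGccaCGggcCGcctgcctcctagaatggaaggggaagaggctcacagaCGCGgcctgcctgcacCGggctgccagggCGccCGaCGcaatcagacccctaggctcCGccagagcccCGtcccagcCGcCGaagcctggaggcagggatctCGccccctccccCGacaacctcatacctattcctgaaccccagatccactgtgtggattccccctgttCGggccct
H3K14ac old, after the Hoxc4 start, chr15:103019113-103019412: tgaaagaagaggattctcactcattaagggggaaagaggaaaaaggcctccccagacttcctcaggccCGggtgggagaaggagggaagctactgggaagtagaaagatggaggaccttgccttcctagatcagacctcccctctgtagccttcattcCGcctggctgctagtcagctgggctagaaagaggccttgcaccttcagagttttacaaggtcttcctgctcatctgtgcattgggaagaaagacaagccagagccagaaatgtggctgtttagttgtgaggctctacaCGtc
Setdb1 young, Hoxd3 intron, chr2:74739836-74740035: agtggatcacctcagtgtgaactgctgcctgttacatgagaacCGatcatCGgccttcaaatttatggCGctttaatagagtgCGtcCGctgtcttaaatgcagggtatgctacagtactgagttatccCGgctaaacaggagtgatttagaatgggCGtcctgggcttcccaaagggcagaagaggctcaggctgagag
Kap1 young, upstream of the Hoxb13 start, chr11:96194226-96194315: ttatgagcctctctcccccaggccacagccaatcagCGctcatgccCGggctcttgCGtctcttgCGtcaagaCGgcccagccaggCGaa
Kap1 old, upstream of the Hoxc4 start, chr15:103018113-103018262: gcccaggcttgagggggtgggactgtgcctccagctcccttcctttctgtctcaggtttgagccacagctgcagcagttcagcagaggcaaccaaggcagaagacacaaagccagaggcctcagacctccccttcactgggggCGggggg

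The second set are places where peaks of different lists lay close together without overlapping. Near Hoxb13 an H3K14ac and a Kap1 peak of young liver were 41 bp apart, and in the Hoxc4 intron a Kap1 peak of young and 1 of old liver were 759 bp apart, the shortest distance between ages in any Hox cluster.
H3K14ac young, downstream of Hoxb13, chr11:96206352-96206651: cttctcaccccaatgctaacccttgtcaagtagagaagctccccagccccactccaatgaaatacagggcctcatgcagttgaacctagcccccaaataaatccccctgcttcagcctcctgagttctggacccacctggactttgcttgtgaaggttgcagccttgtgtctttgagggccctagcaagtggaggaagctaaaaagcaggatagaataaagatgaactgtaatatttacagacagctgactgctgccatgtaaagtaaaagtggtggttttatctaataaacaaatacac
Kap1 young, downstream of Hoxb13, chr11:96206793-96206942: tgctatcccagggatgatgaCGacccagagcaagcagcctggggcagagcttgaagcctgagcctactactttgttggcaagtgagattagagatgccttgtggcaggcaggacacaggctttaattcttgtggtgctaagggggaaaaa
Kap1 young, Hoxc4 intron, chr15:103027055-103027204: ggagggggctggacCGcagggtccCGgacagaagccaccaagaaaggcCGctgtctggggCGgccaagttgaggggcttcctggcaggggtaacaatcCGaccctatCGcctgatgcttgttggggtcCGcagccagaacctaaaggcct
Kap1 old, Hoxc4 intron, chr15:103026146-103026295: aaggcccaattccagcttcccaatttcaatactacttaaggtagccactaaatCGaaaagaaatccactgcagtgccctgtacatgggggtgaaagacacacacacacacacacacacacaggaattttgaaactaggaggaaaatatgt

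H3K14ac in young liver was found at the start of 2 Hox genes, Hoxd1 and Hoxc5 (5.13% of 39, 95% exact binomial interval 0.627% to 17.3%), whereas 18.3% of all protein-coding genes had such a peak. Hoxd1, which acts in sensory neurons, had the peak chr2:74762595-74763094, which covered its start site and held 40 CpG in 500 bp, the highest number among the 30 peaks. At Hoxc5, a gene of the neck and upper trunk, the peak chr15:103014062-103014561 began 247 bp after the start of its basic transcript. It lay over coding sequence and held 32 CpG. The gene record of Hoxc5 begins farther upstream, at position 102967443, and with the outermost start alone Hoxc5 was not counted. The remaining young peak, chr11:96206252-96206751, lay between genes 11936 bp downstream of the start of Hoxb13 and held 2 CpG. Intervals in this report cover counting error only. They take genes and peaks as independent, although neighbours in a cluster can share a peak, so they can be too narrow.

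In old liver H3K14ac marked the starts of 2 other Hox genes, Hoxa7 and Hoxc4 (5.13% against 26.6% of all genes). Hoxa7, which patterns the trunk skeleton, had the peak chr6:52217337-52217836 over coding sequence and the inner 2 of its 3 start sites, with 34 CpG. The gene lies on the minus strand, and its outermost start of a basic transcript is at position 52218711, outside the peak. The nearest young peak of this mark was 210880 bp away. At Hoxc4, the last gene of its cluster, the peak chr15:103018985-103019484 began 51 bp after the first of its 2 start sites, over untranslated sequence, and held 8 CpG. Hoxc6, a gene of the thorax, had an old peak 1073 bp after its start (chr15:103010646-103011145), on the coding exon that carries the homeobox, and another, chr15:103011722-103012221, over its 3′ untranslated region. The remaining old peak lay between genes in the HoxA window. Of the 4 Hox genes with H3K14ac at a start at either age, 0 had it at both. Of the 7337 protein-coding genes marked at either age, 2516 were marked at both, and 4 genes are too few to tell these shares apart. Within 5 kb of a start, Hoxc4, Hoxc5 and Hoxc6 had the mark at both ages, and over the whole gene plus 1 kb Hoxc5 had it. These neighbours were counted from a few peaks that lie close together, and no young peak overlapped an old one. The share of all genes marked at both ages was not counted under either rule.

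The exon of Hoxc6 under the old H3K14ac peak is shown because it encodes DNA-binding sequence that the Hox proteins share.
H3K14ac old, Hoxc6 homeobox exon, chr15:103010692-103010991: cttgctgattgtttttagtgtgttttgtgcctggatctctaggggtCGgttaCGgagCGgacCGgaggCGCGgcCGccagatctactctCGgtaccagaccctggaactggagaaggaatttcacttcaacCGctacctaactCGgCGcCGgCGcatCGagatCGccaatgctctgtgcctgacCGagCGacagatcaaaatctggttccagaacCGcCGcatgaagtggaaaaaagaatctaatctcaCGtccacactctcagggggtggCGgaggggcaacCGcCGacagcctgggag

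Setdb1 was found at the start of 1 Hox gene in young liver and of 0 in old liver, beside 3.91% and 1.15% of all genes. The gene was Hoxd3, which shapes the first vertebrae, and the peak chr2:74739836-74740035 began 217 bp after the last of its 3 start sites, in an intron. A second HoxD peak, chr2:74750078-74750277, lay on an exon of the long noncoding RNA Haglr, with 10 CpG in 200 bp. It was 229 bp from a start that lies inside the gene record. In HoxA, the young list had chr6:52198844-52199043 and chr6:52201764-52201963, the latter over the 3′ untranslated region of Hoxa5, a gene needed for lung development. It also had chr6:52233701-52233900 in the intron of Hoxa10, which acts in the uterus and lower spine, 1039 bp after a start site. In HoxB, chr11:96366780-96366979 lay on the exon of Hoxb1 that carries the homeobox, 1028 bp after the start of this hindbrain gene, and its 16 CpG were the most of any Setdb1 peak in the windows. The old list had chr15:102948280-102948479, which lay 550 bp upstream of the start of Hotair, the HoxC long noncoding RNA known for its link to Polycomb. HoxC was the 1 cluster that had no Setdb1 peak in young liver, as had 15.2% of consecutive genome windows of its length, while the 500 kb on each side of it held 28.

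Kap1 had a peak at the start of 1 Hox gene at each age, Hoxb13 in young liver (5.32% of all genes) and Hoxc4 in old liver (2.3%). At Hoxb13, the most posterior HoxB gene and a prostate regulator, the peak chr11:96194226-96194375 covered the start site and held 11 CpG in 150 bp. At Hoxc4 the peak chr15:103018113-103018262 ended 672 bp before the first start and held 1 CpG. The other 4 HoxB peaks of young liver were chr11:96206793-96206942 and chr11:96214867-96215016 between genes after Hoxb13, chr11:96258609-96258758 in an intron of the noncoding gene Gm53, and chr11:96278009-96278158, 3747 bp before a start of Hoxb8. Kap1 had no peak in the HoxB window in old liver, where the peak nearest to any of the HoxB starts was over 1 Mb away (1280424 bp from Hoxb13). HoxA and HoxD had no Kap1 peak at either age. When the genome was divided into consecutive windows of the length of each cluster, 51.3% of windows of the HoxB length had no old Kap1 peak. Windows without a Kap1 peak made up 36.4% (young) and 60.7% (old) at the HoxA length and 38.4% and 62.2% at the HoxD length.

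**Figure D2:**
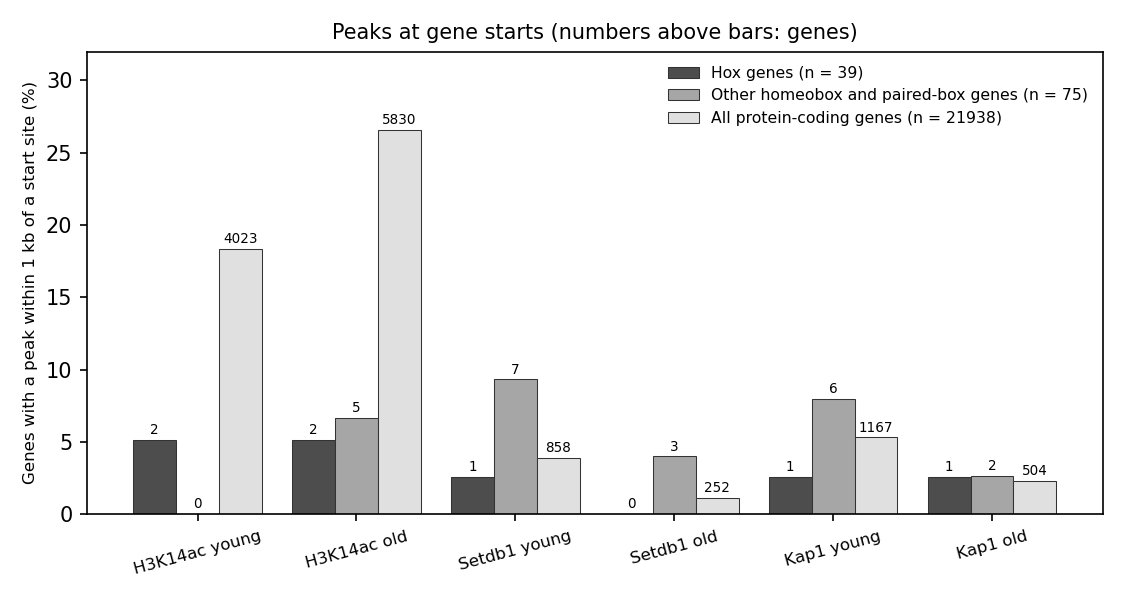
Share of genes with a peak within 1 kb of a start site (%), by peak list, for the 39 Hox genes, 75 other homeobox and paired-box genes and all 21938 protein-coding genes. Numbers above the bars count genes, and the H3K14ac bars of the Hox genes (5.13% at both ages) stand below those of all genes (18.3% and 26.6%).

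Sorted by paralogous group, 3 of 12 genes of groups 1 to 4 had a peak of some list at a start (Hoxc4, Hoxd1 and Hoxd3), as did 2 of 11 genes of groups 5 to 8 (Hoxa7 and Hoxc5) and 1 of 16 genes of groups 9 to 13 (Hoxb13). The other 33 Hox genes had none within 1 kb. Over all protein-coding genes 41.5% had a peak of some list at a start, and the paralogous groups were not compared by a test. Hox starts also lay farther from the nearest H3K14ac peak than genes in general, with a median of 85.7 kb in young and 62.7 kb in old liver against 45.5 kb and 29.0 kb. For Setdb1 the medians were 36.5 kb and 91.7 kb against 19.9 kb and 86.1 kb, and for Kap1 147 kb and 232 kb against 35.5 kb and 101 kb. Hox genes of a cluster share the same nearby peaks, so that these distances are not independent of each other and carry no test. With the window widened to 5 kb, Hox starts with H3K14ac numbered 4 in young liver (Hoxc4, Hoxc5, Hoxc6 and Hoxd1; 10.3% against 23.0% of all genes) and 5 in old liver (Hoxa3, Hoxa7, Hoxc4, Hoxc5 and Hoxc6; 12.8% against 31.4%). In the same window Setdb1 had 4 in young liver (10.3% against 17.1%) and 0 in old liver (5.21% of all genes). Kap1 had 4 at each age, 10.3% against 15.4% in young and 7.78% in old liver.

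Peak density in the windows was below that of the genome for 4 of the 6 lists and above it for old H3K14ac and old Kap1, with wide intervals. H3K14ac had 5.25 peaks per Mb in young liver (95% exact Poisson interval 1.08 to 15.3), beside 7.31 over the genome, and 8.74 in old liver (2.84 to 20.4), beside 7.73. Setdb1 had 10.5 per Mb in young (3.85 to 22.8) and 1.75 in old liver (0.0443 to 9.74), beside 19.1 and 5.24. Kap1 had 13.99 per Mb in young (6.04 to 27.6) and 12.2 in old liver (4.92 to 25.2), beside 18.5 and 8.36. Each of these 6 intervals contains the density of the whole genome. Old liver supplied 5 of 8 H3K14ac peaks in the windows (62.5%, exact binomial interval 24.5% to 91.5%, 51.4% genome-wide), 1 of 7 Setdb1 peaks (14.3%, 0.361% to 57.9%, 21.5% genome-wide) and 7 of 15 Kap1 peaks (46.7%, 21.3% to 73.4%, 31.2% genome-wide). Each of these 3 intervals contains the share of the whole lists.

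**Figure D3:**
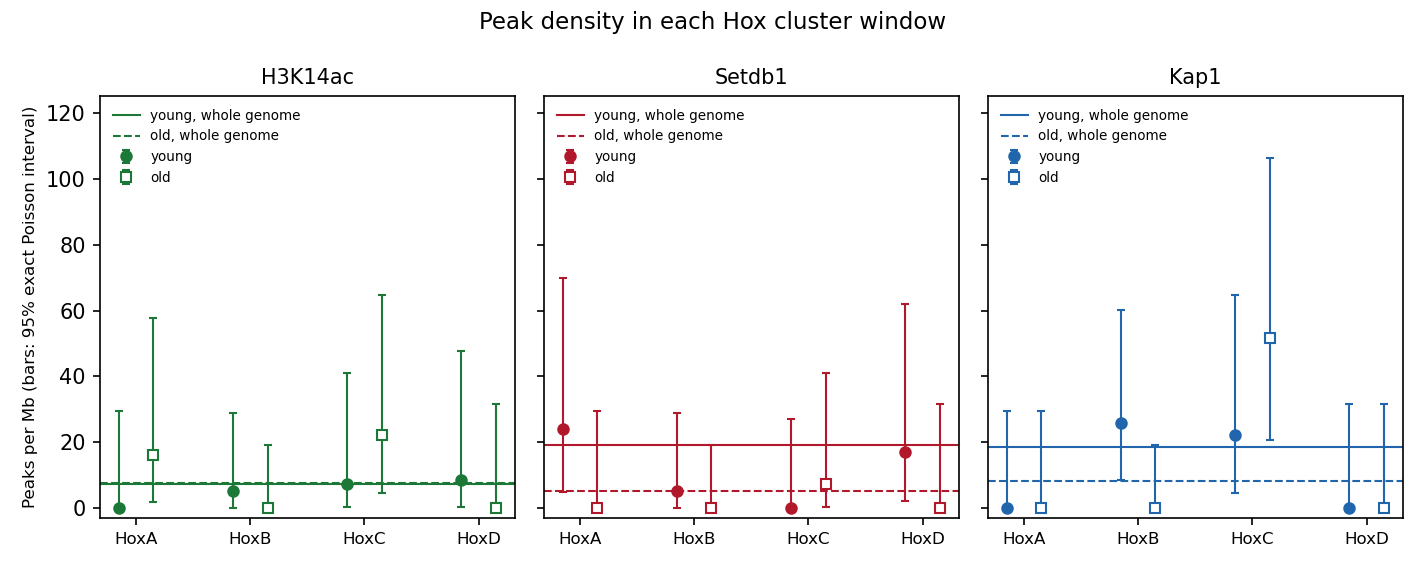
Peaks per Mb in each Hox cluster window for H3K14ac, Setdb1 and Kap1, with 95% exact Poisson intervals as bars; circles are young liver, squares old liver, and the solid and dashed lines are the whole-genome densities of young and old liver. Kap1 of old liver in HoxC (51.6 per Mb) is the 1 point whose interval lies above its whole-genome line. Poisson intervals take peaks as evenly scattered, but 59.1% of genome windows of the HoxC length held no old Kap1 peak and 2.91% held as many or more.

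Kap1 in old liver had all 7 of its Hox peaks in HoxC. Their density there was 51.6 per Mb (95% exact Poisson interval 20.7 to 106), against 8.36 over the genome and 22.1 (4.56 to 64.6) for the 3 young peaks. At the density of the whole lists, which are of unequal size, HoxC would hold 1.14 old and 2.51 young peaks. No test of the counts of 7 and 3 was made. HoxC was singled out after its count was seen. Of consecutive genome windows of the length of HoxC, 568 of 19538 (2.91%) held as many or more old Kap1 peaks, and 5608 (28.7%) held as many young peaks as HoxC. The surroundings of HoxC were dense as well, with 29 young and 29 old Kap1 peaks in the 500 kb on each side (29 per Mb at both ages). The corresponding flanks of HoxB held 9 young and 0 old Kap1 peaks, those of HoxA 10 and 3, and those of HoxD 1 and 1.

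Within HoxC the peaks gathered at the end that holds Hoxc6, Hoxc5 and Hoxc4. From the start of Hoxc6 to the end of Hoxc4 (chr15:103009573-103036852, 27.28 kb), 4.77% of the length of the 4 windows, lay 12 of the 30 peaks (40%). H3K14ac had 1 young and 3 old peaks there, Kap1 3 young and 5 old, and Setdb1 0 at either age. The segment was delimited after the positions of the peaks were seen, so that its share of them is a description. The plot of this segment shows the order. It began with both old H3K14ac peaks of Hoxc6, went on with the young H3K14ac peak of Hoxc5 and a young Kap1 peak 504 bp after it, and continued with an old Kap1 peak, the old H3K14ac peak of Hoxc4 and an old Kap1 peak, with 722 bp on either side of the H3K14ac peak. Beyond these, the introns of Hoxc4 had young Kap1 peaks at chr15:103022267-103022416 and chr15:103027055-103027204. The old Kap1 peak already named after the H3K14ac peak of Hoxc4, chr15:103020207-103020356, also lay in these introns. Further old Kap1 peaks there were chr15:103026146-103026295, chr15:103031196-103031345 and chr15:103032794-103032943. The last of them held 12 CpG in 150 bp, the most of any Kap1 peak in the windows. The other 2 old Kap1 peaks of HoxC lay outside the segment, in the intron of Hoxc13, a regulator of hair (chr15:102924852-102925001), and 1439 bp before the start of Hoxc10 (chr15:102965208-102965357).

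**Figure D4:**
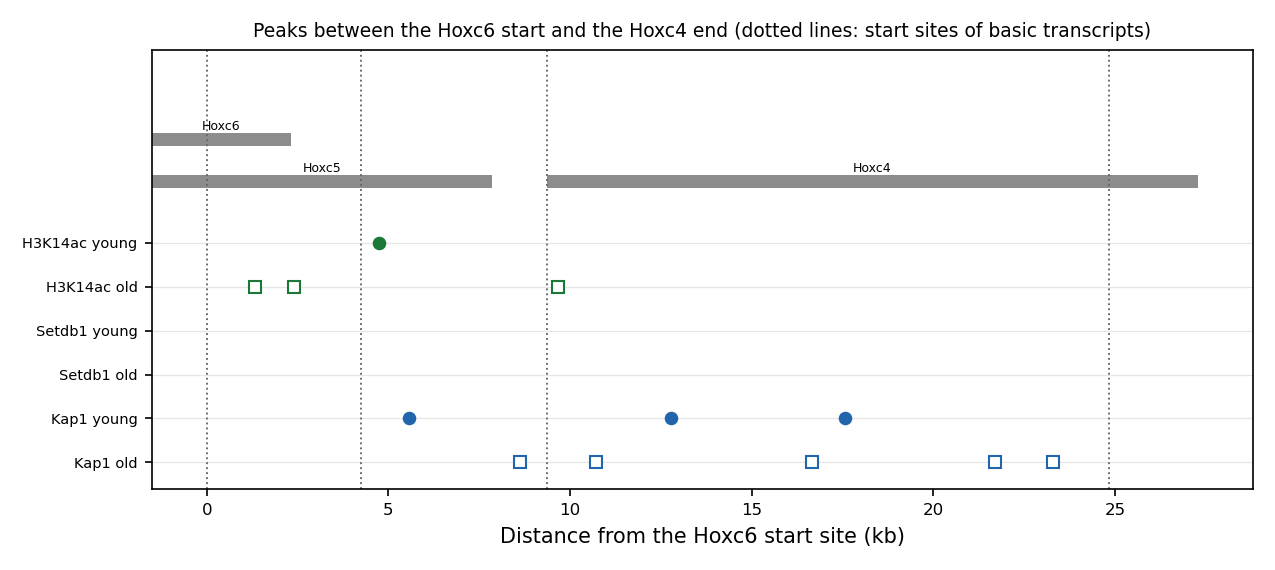
Peaks between the start of Hoxc6 and the end of Hoxc4, with distance from the Hoxc6 start (kb) on the horizontal axis and 1 row per peak list; grey bars are gene records, dotted lines start sites, circles young and squares old liver. The segment holds 12 peaks, of which 4 are H3K14ac, 8 are Kap1 and 0 are Setdb1.

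The microRNA gene Mir615 lies in the intron of Hoxc5 (chr15:103014910-103015001), between the young H3K14ac peak, which ended 349 bp before it, and the young Kap1 peak, which began 156 bp after its start. Of the 7 microRNA genes annotated in the windows it was the 1 with a peak within 1 kb of its start. The share over all microRNA genes was not counted, so this count stands without a comparison. Mir10a, Mir10b, Mir196a-1, Mir196a-2 and Mir196b, the microRNAs that target Hox transcripts, had no peak closer than 3535 bp in any list, the closest being Setdb1 in young liver at Mir196b. The mature Mir615 sequences (RefSeq, GRCm38.p6), with the seed (bases 2 to 8) in capitals, and the Kap1 peak beside them were as follows.
mmu-miR-615-5p: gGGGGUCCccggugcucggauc
mmu-miR-615-3p: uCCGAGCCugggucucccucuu
Kap1 young, Hoxc5 intron beside Mir615, chr15:103015066-103015215: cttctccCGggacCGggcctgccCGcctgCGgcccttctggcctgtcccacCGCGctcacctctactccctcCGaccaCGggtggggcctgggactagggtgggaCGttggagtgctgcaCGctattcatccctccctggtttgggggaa
Kap1 old, Hoxc4 intron with 12 CpG, chr15:103032794-103032943: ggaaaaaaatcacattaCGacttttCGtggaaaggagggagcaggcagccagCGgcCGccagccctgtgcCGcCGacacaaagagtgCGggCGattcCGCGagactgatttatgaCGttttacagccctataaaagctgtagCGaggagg

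The places of the peaks were counted by mark, without a test and for peaks of different width (H3K14ac 500 bp, Setdb1 200 bp, Kap1 150 bp). Of the 8 H3K14ac peaks, 3 lay over coding sequence, 3 over untranslated regions and 2 between genes. Of the 15 Kap1 peaks, 9 lay in introns, 5 between genes and 1 over an untranslated region. The 7 Setdb1 peaks were spread over introns (3), coding sequence (1), an untranslated region (1), a noncoding exon (1) and the space between genes (1). Within 1 kb of a Hox start lay 4 H3K14ac, 1 Setdb1 and 2 Kap1 peaks. With the starts of all genes, coding or noncoding, the counts in young and old liver were 2 of 3 and 2 of 5 for H3K14ac, 2 of 6 and 1 of 1 for Setdb1, and 2 of 8 and 1 of 7 for Kap1. In the whole lists of young and old liver, 27.3% and 36.4% of H3K14ac peaks lay this close to a start of any gene, beside 4.36% and 4.35% of Setdb1 and 6.82% and 6.4% of Kap1 peaks.

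The H3K14ac and young Setdb1 peaks of the Hox windows held more CpG than their lists, and the clusters themselves hold 22.9 CpG per kb against 8.26 over the genome. Kap1 peaks of both ages together had a median of 0.667 per 100 bp in the windows and in the whole lists. The median H3K14ac peak had 32 CpG in young and 25 in old liver, against 4 and 6 in the whole lists. The medians for Kap1 were 3.5 and 1 against 1 and 1, and the Setdb1 peaks of young liver had a median of 8 against 1. Above the upper quartile of their own mark lay 6 of 8 H3K14ac, 4 of 7 Setdb1 and 7 of 15 Kap1 peaks, and above the 95th percentile lay 0, 4 and 4. The highest value of each mark was 8 per 100 bp, in the H3K14ac peak of Hoxd1, the Setdb1 peak of Hoxb1 and an old Kap1 peak of the Hoxc4 intron. Of the Kap1 peaks, 3 of 7 in old and 1 of 8 in young liver had 0 CpG, beside 33.7% and 33.2% of the whole lists. No Hox peak was soft-masked as repeat over more than 50% of its length, a state found in 9.3% to 28.8% of the whole lists. The windows were soft-masked over 18.5% of their length and the genome over 36.4%.

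**Figure D5:**
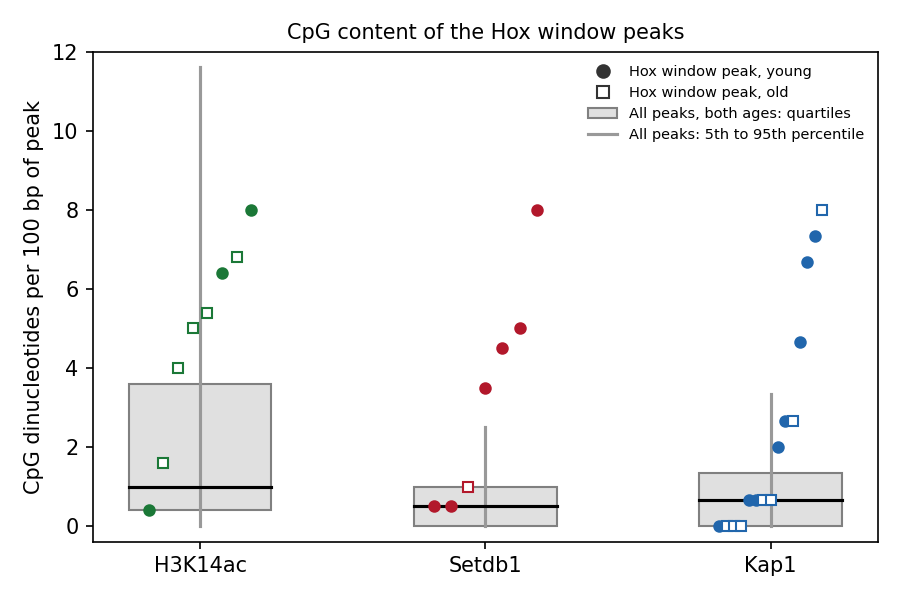
CpG dinucleotides per 100 bp of each Hox window peak, by mark, with circles for young and squares for old liver. Boxes give the quartiles and median of all peaks of the mark at both ages and grey lines their 5th to 95th percentile; 6 of 8 H3K14ac points lie above the box.

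Short sequence motifs were searched on both strands. The Onecut motif ATCAAT occurred in 0 of the 30 Hox peaks, beside 17.4% and 14.2% of all H3K14ac peaks of young and old liver, 9.65% and 9.32% of Setdb1 peaks, and 7.96% and 8.56% of Kap1 peaks. TAATTA, the core that Hox proteins bind, also occurred in 0 of 30, beside 10.4%, 8.94%, 5.69%, 5.09%, 3.68% and 4.11% of the lists in the same order. The Pbx and Hox motif TGATTNAT was found in 3 Hox peaks, among them the young Setdb1 peak at the end of Hoxa5 and the old Kap1 peak in the Hoxc4 intron that held 12 CpG. Its shares of the whole lists were 6.47%, 5.57%, 3.36%, 3.06%, 2.40% and 2.38%. The first 4 letters of TGATTNAT also end the reverse complement of ATCAAT, so that both can match in overlapping places. A match is a description of letters, and its absence says only that they are not in these peaks.

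RefSeq promoters (GRCm38.p6, 250 bases before to 50 after the start) were found for 22 of the 39 Hox symbols, 24 promoters in all. They held a median of 14.5 CpG (4 to 45) against 7 over all 32851 promoters. The promoter of Hoxd1, with 29 CpG, was the 1 of the 24 that a peak of any list overlapped, the H3K14ac peak of young liver printed above (1 of 24, beside 18% of all promoters).

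No overlap was found in any comparison between lists in the Hox windows. None of the 3 young H3K14ac peaks met an old peak (genome-wide 20.7%), and neither did the 8 young Kap1 peaks (7.61%) or the 6 young Setdb1 peaks (0.854%). Seen from old liver, the genome-wide shares were 20.1%, 17.1% and 3.11%, with 0 of 5, 0 of 7 and 0 of 1 in the Hox windows. Between marks, H3K14ac peaks over the whole genome met Kap1 in 12.1% (young) and 6.65% (old) of instances, met Setdb1 in 2.70% and 0.831%, and Setdb1 met Kap1 in 2.07% and 1.82%, again with 0 in the Hox windows. With so few peaks the upper limits of the exact binomial intervals were high, 70.8% for the 3 young H3K14ac peaks and 41.0% for the 7 old Kap1 peaks, so that a lower rate of sharing was not detectable. The Setdb1 peaks of young liver lay at least 11678 bp from Kap1 of the same age.

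Genes that act with or on the Hox genes had H3K14ac at more starts in old than in young liver, as did protein-coding genes as a whole. Among 9 Hox cofactors of the Pbx, Meis and Pknox families, whose proteins bind DNA together with Hox proteins, 0 had H3K14ac at a start in young and 5 in old liver (Meis1, Pbx2, Pbx3, Pknox1 and Pknox2). Of 21 Polycomb and Trithorax genes, whose products keep Hox genes silent or active, 4 were marked in young liver (Eed, Kdm6a, Phc2 and Ring1) and 11 in old liver, 3 of them at both ages. The old set included the methyltransferases Ezh2 and Kmt2a, together with Bmi1, Jarid2, Men1, Pcgf2, Phc3 and Rnf2. Over all genes the shares were 18.3% and 26.6%, and no test of the lists was made. The exact binomial intervals of young and old liver were wide, 0% to 33.6% and 21.2% to 86.3% for the cofactors. For the Polycomb and Trithorax genes they were 5.45% to 41.9% and 29.8% to 74.3%. Setdb1 marked 0 of the 21 genes in young and 1 (Phc1) in old liver, beside 3.91% and 1.15% of all genes. Kap1 marked 1 of the 21 at each age, Phc1 in young and Pcgf2 in old liver, beside 5.32% and 2.3% of all genes. Of the 9 cofactors, 0 had a Setdb1 or Kap1 peak at a start at either age.

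The ParaHox and Evx genes, the closest relatives of the Hox genes, had H3K14ac at 0 of 8 starts at both ages. Setdb1 was found at Cdx2 and Gsx2 in young and at Pdx1 in old liver, and Kap1 at Cdx2 in young liver. Among 75 other homeobox and paired-box genes, H3K14ac marked 0 in young and 5 in old liver (among them Dlx4, Lhx6 and Six5). Setdb1 marked 7 and 3 of the 75 genes (9.33% and 4%) and Kap1 6 and 2 (8% and 2.67%). Over all protein-coding genes the shares of young and old liver were 18.3% and 26.6% for H3K14ac, 3.91% and 1.15% for Setdb1, and 5.32% and 2.3% for Kap1. For the Hox genes the matching counts were 1 and 0 of 39 for Setdb1 and 1 and 1 for Kap1.

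The label of the tissue was checked on marker genes. H3K14ac lay at the start of 5 of 11 hepatocyte genes in young liver (among them Apoa1, Apob and Foxa2) and of 6 in old liver, where Ttr was added, while Alb, the main hepatocyte product, had no such peak at either age. The shares over all protein-coding genes were 18.3% and 26.6%. Of 5 marker genes each, Kupffer and endothelial cells had 0 at both ages, cholangiocytes had 0 in young and 1 in old liver (Sox9), and stellate cells had 1 in young (Reln) and 0 in old liver. The part of other cell types, and of the different sequencing instruments used for H3K14ac and for the factors, in the Hox peaks was not tested.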

How the data were processed

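Per the labels and the study's methods, the authors aligned reads to mm10 with BWA, removed duplicates with Picard, kept unique reads of phred score 30 or more, merged livers of the same age and used PeakSeq to call peaks over input (FDR 5%, q-value 0.02 for H3K14ac, 0.04 for Setdb1 and 0.05 for Kap1). The deposited lists hold peak positions, without heights or p-values, and signal below the authors' threshold does not appear in them. Mark and age of each list were taken from its name. Starts were those of GENCODE M21 basic transcripts, and a gene was counted where a peak shared at least 1 bp with the 1 kb on either side. All Hox genes with such a peak were named, and other genes came from lists of cofactors, regulators, homeobox genes and cell markers (1 of 12 hepatocyte symbols, Tf, did not match). Members and lists were chosen with earlier results of these data known. Overlap code was tested on simulated data, and 30 of its counts were repeated with bedtools 2.31.1, with 0 differences. Alternatives were wider start windows, other start definitions, other flanks, merged peaks, midpoints and other overlap rules. The software was Python 3.11.15 with scipy 1.17.1, numpy 2.4.6 and, for figures, matplotlib 3.10.9. The sequential ChIP samples were not analysed here, and a few genes and sequences are not reported here.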

Additional observations from a re-analysis of the deposited data

How the results depend on the processing

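Of 81 alternative values, 61 were within 1.5 times the reported count and 20 were not. With 5 kb on either side of a start, Hox genes with a peak numbered 4 for young H3K14ac, 5 for old H3K14ac, and 4 each for young Setdb1, young Kap1 and old Kap1. With 2.5 kb they numbered 4 for old H3K14ac, 3 for young Setdb1, and 2 each for young and old Kap1. The outermost start alone left 1 for young H3K14ac, 1 for old H3K14ac and 0 for young Setdb1. The whole gene plus 1 kb gave 4 for old H3K14ac, 5 for young Setdb1, and 3 each for young and old Kap1. For the 2.5 kb window, the outermost start and the whole gene the share of all genes was not counted, so these counts stand without a comparison. Flanks of 50 kb gave 10 young Setdb1, 3 old Setdb1 and 13 young Kap1 peaks in the clusters. When peaks within 500 bp counted as shared, 1 young H3K14ac peak met a young Kap1 peak. Merged peaks and midpoints left every count in the windows within 1.5 times. No paired analysis was possible because the livers of an age were merged before peak calling. For the same reason no liver could be left out, and counts of 1 to 8 peaks per list limit every share.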
